A study of Homo sapiens with 12 samples.

Results

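Transcripts of 10 genes for prothymosin α, parathymosin, SET and the high mobility group (HMG) proteins were described in CD133+ and CD133- cells of 3 gastric cancer cell lines. The 10 genes, PTMA, PTMS, SET, HMGA1, HMGA2, HMGB1, HMGB2, HMGB3, HMGN1 and HMGN2, were taken by their gene symbols from 34595 genes with a value. The family was chosen by the log2 difference of PTMA between the fractions, which an earlier analysis of the same arrays had listed among the largest increases over the lines, and the other 9 genes followed by name. Differences between the fractions are therefore given for the 10 genes as a description, without p-values. P-values of the 10 genes belong to their differences between lines, in the level or, for the 9 genes other than PTMA, in the change between fractions.

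KATO-III, SNU-216 and SNU-601 are established lines grown from gastric cancers, and they were cultured without any treatment named in the labels. Each line was sorted by flow cytometry on CD133, a membrane glycoprotein encoded by PROM1 and used as a marker of stem-like tumor cells, into the brightest 10% (CD133+) and the dimmest 6% (CD133-). Each of the 6 populations was hybridized on 2 Illumina HT-12 v3 BeadChip arrays, which gave 12 arrays. No genotype is given for the lines, and the design text has SNU201 where the labels have SNU-216. Whether the 2 arrays of a population came from separate sorts or from the same RNA was not stated. Errors of differences within a line and between lines therefore measure only the spread between these arrays. Errors of differences over the lines also take in how far the change differs between the lines. An array reads the mean over a sorted population, and more expressing cells cannot be told apart from more RNA per cell.

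Prothymosin α and parathymosin are small, very acidic proteins that bind histones, and prothymosin α is abundant in dividing cells. SET is a histone chaperone and an inhibitor of protein phosphatase 2A. The HMG proteins bind chromatin with little regard to sequence: HMGA proteins through AT hooks in the minor groove, HMGB proteins through HMG boxes that bend DNA, and HMGN proteins on the nucleosome itself.

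The deposited values were intensities on a linear scale after quantile normalization and subtraction of background. Values under a floor of 32.7 were set to it, since the values scatter around 0 by about that much, and the differences below are on the log2 scale. Tests covered the 20147 genes that exceeded this floor on 2 arrays or more, and a gene was "called" at a Benjamini-Hochberg adjusted p under 0.05 in limma. All 10 genes were tested. Of these, 8 exceeded the floor on all 12 arrays, HMGA2 did on 9 and HMGB1 on 8.

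Median intensities of the arrays lay between 26.0 and 27.1, and 16320 to 16474 genes per array exceeded the floor. PROM1, the gene for the sorted marker, was 1.66 higher (SE 0.13) in CD133+ cells over the lines and rose in all 3 lines. No p-value is given for it, because the cells were sorted on its product and the study had listed it as raised. The 5 epithelial markers (EPCAM, KRT8, KRT18, KRT19, CDH1) lay above the floor on all 12 arrays, with summed intensities of 46394 to 57671. Among 5 leukocyte markers, PTPRC and CD3D were above the floor on 0 arrays, while LYZ and CD14 drove summed levels of 5702 to 8276 in KATO-III. SNU-601 summed to 9086 to 10039 for the same markers and SNU-216 to -54.9 to -16.0, that is, to nothing above background. Of 5 fibroblast markers, COL3A1 and DCN were above the floor on 0 arrays, and the sum was 771 to 825 in CD133- KATO-III cells against 108 to 134 in CD133+ KATO-III cells, nearly all of it from LUM. It was -1.09 to 170 in the other lines. The part of these markers in the results below was not tested.

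Promoter sequences of the family are shown first, as a description of their letters. Whether they bear on the differences below was not tested. RefSeq tables of GRCh38.p14 held 15 windows of 250 bases upstream of a transcript start for 7 of the 10 genes, and PTMS, HMGA2 and HMGB2 were not matched. The letters CCAAT, on either strand, were found in 11 of the 15 windows and in 32.0% of 35116 windows of the same length for all genes. The 15 windows include 5 of SET, 3 of HMGB1 and 2 each of HMGA1 and HMGB3, so they are not 15 separate genes. The windows below are from PTMA and HMGB1, whose intensity was highest in CD133+ KATO-III cells, from HMGB3, which was lower in CD133+ than in CD133- KATO-III cells, and from HMGN2, which hardly differed. They are written 5′ to 3′ along the gene, with CCAAT in capitals.
PTMA, chr2:231708275-231708524, plus strand: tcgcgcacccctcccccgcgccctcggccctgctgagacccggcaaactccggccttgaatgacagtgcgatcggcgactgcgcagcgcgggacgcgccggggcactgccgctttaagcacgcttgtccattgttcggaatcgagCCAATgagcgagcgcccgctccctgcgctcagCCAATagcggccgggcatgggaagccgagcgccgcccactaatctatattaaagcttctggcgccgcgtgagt
HMGB1, chr13:30465937-30466186, minus strand: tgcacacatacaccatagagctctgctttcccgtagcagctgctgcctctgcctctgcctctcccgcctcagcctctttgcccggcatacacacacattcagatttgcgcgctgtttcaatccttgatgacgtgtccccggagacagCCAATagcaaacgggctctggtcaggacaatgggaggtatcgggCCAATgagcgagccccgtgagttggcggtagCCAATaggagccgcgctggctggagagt
HMGB3, chrX:150983085-150983334, plus strand: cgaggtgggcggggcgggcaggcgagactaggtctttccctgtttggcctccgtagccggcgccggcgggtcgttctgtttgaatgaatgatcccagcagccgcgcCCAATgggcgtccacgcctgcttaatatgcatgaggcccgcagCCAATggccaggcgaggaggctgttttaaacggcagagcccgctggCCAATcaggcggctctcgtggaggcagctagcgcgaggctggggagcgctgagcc
HMGN2, chr1:26472190-26472439, plus strand: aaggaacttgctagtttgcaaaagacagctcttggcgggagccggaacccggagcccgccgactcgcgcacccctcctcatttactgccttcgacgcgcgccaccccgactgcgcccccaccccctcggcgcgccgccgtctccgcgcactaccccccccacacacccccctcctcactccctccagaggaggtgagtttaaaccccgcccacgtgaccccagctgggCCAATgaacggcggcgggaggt

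The PTMA window held 2 copies of CCAAT, the HMGB1 and HMGB3 windows 3 each, and the HMGN2 window 1. Over all genes, 9.5% of windows held 2 or more and 2.9% held 3 or more. The other HMGB1 windows held 1 and 0, and the other HMGB3 window 0. Of the other motifs searched on both strands, TTTGAA was in 2 of the 15 windows (13.3% of all), TTTAAA in 4 (11.3%), CACGTG in 2 (6.3%) and TATAAA in 0 (10.7%). A match describes letters in the window and no more.

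PTMA, prothymosin α, had the largest difference between the fractions of the 10 genes in KATO-III, in SNU-601 and over the lines, and PTMS had it in SNU-216. In KATO-III its intensity was 1542 and 1796 on the CD133+ arrays and 326 and 298 on the CD133- arrays. In SNU-216 the CD133+ arrays read 475 and 451 and the CD133- arrays 439 and 340. In SNU-601 they read 463 and 420 against 248 and 232. The CD133+ arrays lay above the CD133- arrays of the same line in all 3 lines, and the 2 CD133+ arrays of KATO-III lay far above all the others.

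Between the fractions PTMA differed 5.34-fold in KATO-III (log2 difference 2.42, SE 0.13), 1.84-fold in SNU-601 (0.88) and 1.20-fold in SNU-216 (0.26). The SNU-216 value was not called and rested on the 2 CD133- arrays, with 0.44 without the first of them and 0.08 without the second. The difference in KATO-III was the 7th highest of the 20147 tested genes, and the one over the lines, 1.18 (SE 0.28), was the 12th. By mean intensity CD133+ KATO-III cells came first (1669 ± 179, SD, n = 2). CD133+ SNU-216 cells, CD133+ SNU-601 cells and CD133- SNU-216 cells followed at 463, 441 and 389, and each of these overlapped the next. CD133- KATO-III cells (312) and CD133- SNU-601 cells (240) were separate and lowest. Averaged over both fractions, PTMA was 1.70-fold lower in SNU-216 than in KATO-III (log2 difference -0.77, adjusted p = 4.94e-05 in limma). It was 2.21-fold lower in SNU-601 than in KATO-III (-1.15, adjusted p = 3.36e-06 in limma) and 1.30-fold lower in SNU-601 than in SNU-216 (-0.38, adjusted p = 0.00517 in limma). The difference between lines was not called when the 6 population means were the units (adjusted p = 0.260 in limma).

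**Figure D1:**
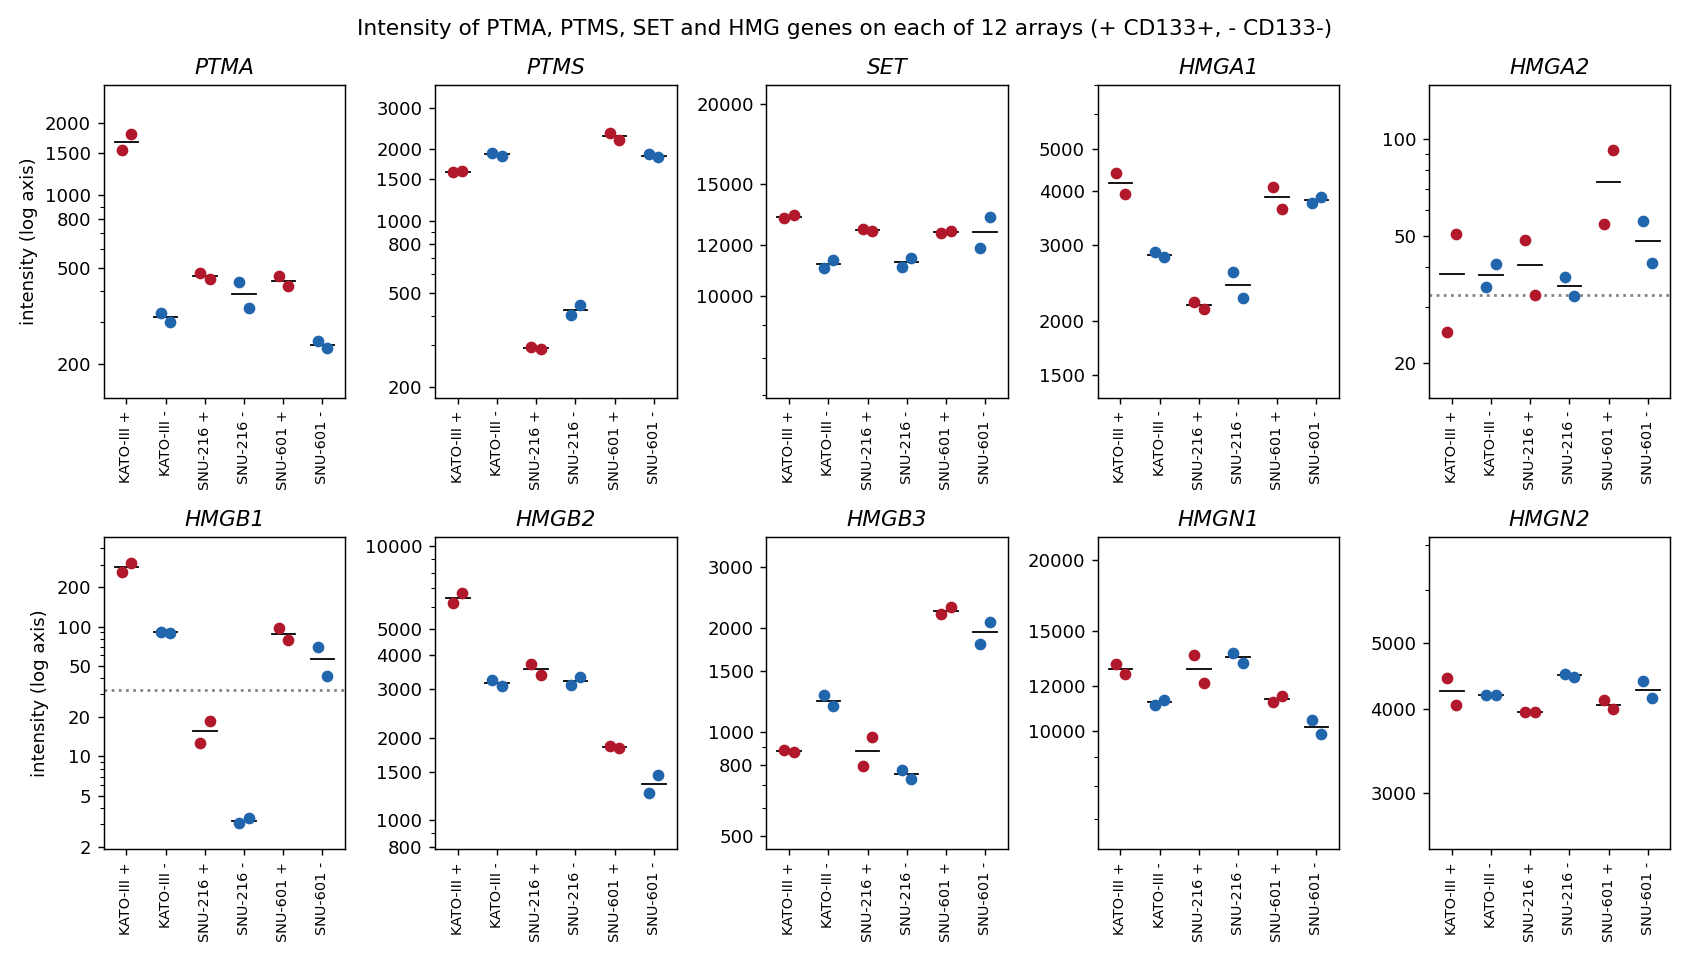
Intensity (log axis, different range in each panel) of the 10 genes on each of the 12 arrays. Red points are CD133+ arrays, blue points CD133- arrays, black lines the mean of the 2 arrays of a population, and the dotted line the floor of 32.7. PTMA, HMGB1 and HMGB2 are highest on both CD133+ arrays of KATO-III, whereas PTMS is lowest in SNU-216 and HMGB3 highest in SNU-601.

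Parathymosin did not follow its relative. PTMS read 1602 and 1615 on the CD133+ arrays of KATO-III and 1938 and 1871 on the CD133- arrays. The SNU-216 arrays gave 295 and 289 in CD133+ cells against 402 and 443 in CD133- cells, and the SNU-601 arrays 2333 and 2199 against 1910 and 1858. The fractions were separate in each line, with CD133+ cells lower in KATO-III and SNU-216 and higher in SNU-601.

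The log2 differences of PTMS were -0.24, -0.53 and 0.27 (SE 0.06), in that order of lines. The change differed between the lines (adjusted p = 0.000231, moderated F-test in limma), and it did so for every pair of lines. PTMS differed more between the lines than between the fractions. Its level in SNU-216 was 4.99-fold below that in KATO-III (log2 difference -2.32, SE 0.04, adjusted p = 6.40e-11 in limma) and 5.88-fold below that in SNU-601. The level in SNU-601 exceeded that in KATO-III 1.18-fold (adjusted p = 0.000693 in limma). With population means as units the level still differed between lines (adjusted p = 0.00178 in limma).

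SET, the histone chaperone, varied little. The KATO-III arrays read 13250 and 13397 in CD133+ cells and 11076 and 11403 in CD133- cells. The SNU-216 arrays read 12713 and 12658 against 11086 and 11484. In SNU-601, CD133+ arrays read 12551 and 12658, and CD133- arrays 11880 and 13322. The fractions were separate in KATO-III and SNU-216 and overlapped in SNU-601, where the CD133- arrays lay on both sides of the CD133+ arrays.

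Differences in SET were 0.25 in KATO-III, 0.17 in SNU-216 and 0.00 in SNU-601 (SE 0.05). The F-test of this change over the lines was not called (adjusted p = 0.0656 in limma), while 1 of the 3 pairs was, SNU-601 minus KATO-III at -0.24 (SE 0.08). No difference in its level between the lines was called (adjusted p = 0.251 in limma), and the 95% intervals of the pairwise log2 differences ran from -0.12 to 0.05 for SNU-216 minus KATO-III, from -0.05 to 0.13 for SNU-601 minus KATO-III and from -0.01 to 0.16 for SNU-601 minus SNU-216.

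HMGA1, an architectural protein that is abundant in embryos and in tumors, read 4382 and 3933 in CD133+ and 2886 and 2807 in CD133- cells of KATO-III. The SNU-216 arrays gave 2216 and 2130 against 2594 and 2262. SNU-601 gave 4079 and 3634 against 3746 and 3873. CD133+ cells were clearly higher in KATO-III, slightly lower in SNU-216, and within the spread in SNU-601.

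The log2 difference of HMGA1 was 0.54 in KATO-III, -0.16 in SNU-216 and 0.02 in SNU-601 (SE 0.08), and it differed between the lines (adjusted p = 0.00266 in limma). KATO-III stood apart from both other lines in this, whereas the changes in SNU-601 and SNU-216 were not called different from each other. Its level was 1.50-fold lower in SNU-216 than in KATO-III (adjusted p = 1.48e-05 in limma). In SNU-601 the level was 1.11-fold higher than in KATO-III (adjusted p = 0.0438 in limma). The F-test of the level was not called over population means (adjusted p = 0.0780 in limma).

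HMGA2, the fetal relative that let-7 microRNAs repress, was close to the floor everywhere. Its intensities ran from 25.0, on a CD133+ array of KATO-III, to 92.3, on a CD133+ array of SNU-601. The populations overlapped their neighbors in order from the highest (CD133+ SNU-601, mean 73.4) to the lowest (CD133- SNU-216, mean 34.8). No difference between fractions was called. The F-test of the level over the lines missed the threshold (adjusted p = 0.0517 in limma), while the pair SNU-601 minus SNU-216 passed it (log2 difference 0.64, 95% interval 0.13 to 1.15, adjusted p = 0.0358 in limma).

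HMGB1, the most abundant HMG-box protein of many cells and an alarm signal when released from them, had low values here. In KATO-III it read 265 and 307 in CD133+ cells and 91.2 and 89.9 in CD133- cells. In SNU-601 the readings were 97.7 and 78.6 against 69.9 and 41.9. In SNU-216 they were 12.6 and 18.7 against 3.08 and 3.34, all 4 under the floor. The CD133+ arrays were higher than the CD133- arrays wherever the gene was measured, and most of all in KATO-III.

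The log2 difference of HMGB1 was 1.66 in KATO-III (3.15-fold, SE 0.23) and none can be given for SNU-216. In SNU-601 it was 0.69 (SE 0.23) and not called, and it ran from 0.33 without the second CD133- array to 1.06 without the first. The F-test of the change over the lines was called (adjusted p = 0.00743 in limma), and this call rests on the SNU-216 values at the floor, since the changes in SNU-601 and KATO-III were not called different. For the level read by this row, SNU-216 was at least 4.92-fold lower than KATO-III (adjusted p = 1.12e-06 in limma). Whether the low values come from the probe or from the transcript was not tested. SNU-601 was at least 2.11-fold higher than SNU-216 (adjusted p = 0.000262 in limma) and 2.33-fold lower than KATO-III (adjusted p = 0.000120 in limma). The difference between lines was also called over population means (adjusted p = 0.0182 in limma).

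A further row named HMGB1L1, for an HMGB1-like sequence outside the family as taken here and chosen after its values were seen, read 1367 and 1237 against 604 and 499 in KATO-III. It read 493 and 385 against 287 and 337 in SNU-216, and 363 and 359 against 340 and 342 in SNU-601. The log2 differences were 1.24, 0.49 and 0.08 (SE 0.14), given without p-values because the row was picked on them. RefSeq lists many processed copies of these genes, with 50 pseudogenes named after HMGB1, 48 after HMGN2, 38 after HMGN1, 32 after HMGB3, 19 after SET, 15 after PTMA, 8 after HMGA1, 1 after HMGB2 and 0 after PTMS and HMGA2. The rows carry gene symbols without probe sequences, and whether a row reads a copy as well as its gene was not tested.

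HMGB2, the HMG-box protein tied to dividing cells, read 6212 and 6755 in CD133+ and 3241 and 3089 in CD133- cells of KATO-III. SNU-216 read 3712 and 3389 against 3121 and 3336, and SNU-601 1874 and 1842 against 1255 and 1469. CD133+ arrays lay above CD133- arrays in each line, by most in KATO-III.

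For HMGB2 the log2 differences were 1.03 in KATO-III (SE 0.08), 0.45 in SNU-601 and 0.14 in SNU-216, which is the same order of lines as for PTMA. Over the lines the difference was 0.54 (SE 0.12). The change differed between lines (adjusted p = 0.000806 in limma), with KATO-III apart from each of the others. Levels fell in the order KATO-III, SNU-216 and SNU-601, with SNU-601 2.85-fold below KATO-III (adjusted p = 2.47e-08 in limma), SNU-601 2.13-fold below SNU-216 (adjusted p = 1.54e-07 in limma) and SNU-216 1.34-fold below KATO-III (adjusted p = 0.000154 in limma). The level was called over population means as well (adjusted p = 0.0120 in limma).

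HMGB3, an HMG-box protein known from blood stem cells, went the other way in KATO-III, with 887 and 873 in CD133+ and 1272 and 1185 in CD133- cells. SNU-216 gave 796 and 962 against 776 and 730, and SNU-601 2188 and 2292 against 1794 and 2083. CD133+ cells were thus lower in KATO-III and higher on each array pair of the other lines.

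Its log2 difference was -0.48 in KATO-III, 0.22 in SNU-216 and 0.21 in SNU-601 (SE 0.10). The change differed between the lines (adjusted p = 0.00440 in limma), and KATO-III differed from both others, whose changes differed by -0.01 (SE 0.14, SNU-601 minus SNU-216). The level was highest in SNU-601, 2.00-fold above KATO-III (adjusted p = 1.47e-06 in limma) and 2.56-fold above SNU-216 (adjusted p = 1.21e-07 in limma). The F-test of the level over the lines was also called with population means as units (adjusted p = 0.0208 in limma). HMGB2 and HMGB3 thus had their lowest and highest levels, respectively, in the same line.

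The nucleosome-binding members were among the steadiest. HMGN1 read 13109 and 12631 in CD133+ and 11131 and 11360 in CD133- cells of KATO-III. SNU-216 read 13631 and 12140 against 13761 and 13214, and SNU-601 11276 and 11532 against 10473 and 9904. The fractions were separate in KATO-III and SNU-601 and overlapped in SNU-216.

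The log2 differences of HMGN1 were 0.19, -0.07 and 0.16 (SE 0.06) in KATO-III, SNU-216 and SNU-601, and the F-test of the change over the lines was not called (adjusted p = 0.0536 in limma). Of the 3 pairs of lines 1 was called, SNU-216 minus KATO-III at -0.26 (SE 0.08). Its level was 1.22-fold lower in SNU-601 than in SNU-216 (adjusted p = 0.000217 in limma). The F-test of the level over the 3 lines was not called with population means as units (adjusted p = 0.201 in limma). HMGN2 kept between 3953 and 4503 on all 12 arrays. Its differences between fractions were 0.02, -0.18 and -0.07 (SE 0.05), and the 95% intervals of its level differences between lines lay within -0.10 and 0.08 (adjusted p = 0.866 for the lines together, in limma).

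**Figure D2:**
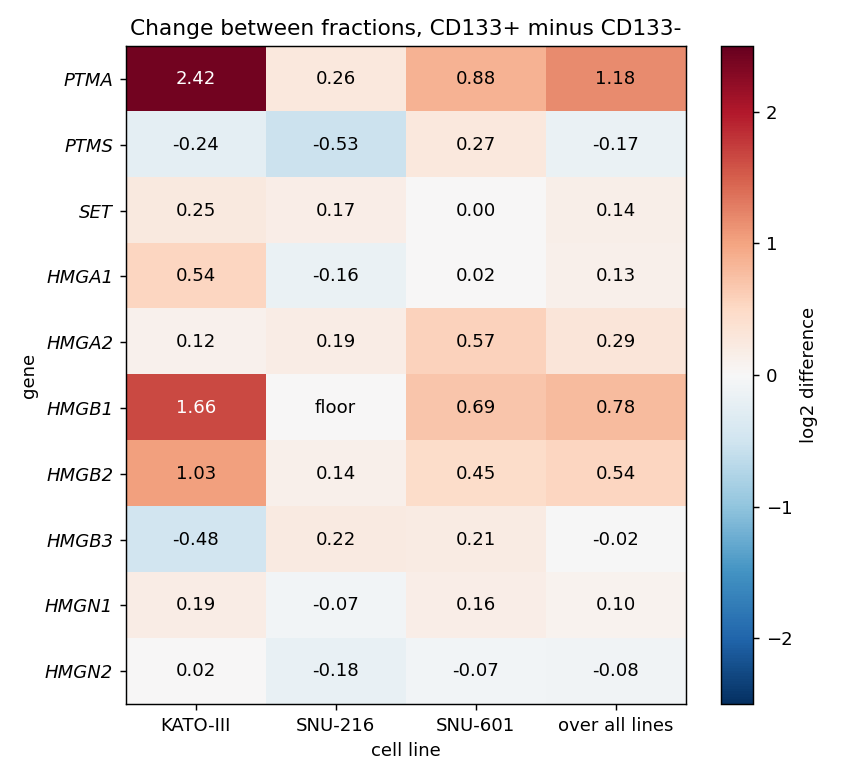
Log2 difference between the fractions, CD133+ minus CD133-, for the 10 genes (rows) in each line and over all lines (columns). Red is higher in CD133+ cells, blue lower, and "floor" marks HMGB1 in SNU-216, where all 4 arrays were under the floor. PTMA, HMGB1 and HMGB2 are above 1 in KATO-III, and the values in SNU-216 lie between -0.53 and 0.26.

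Counts over the family were set beside all tested genes. In KATO-III 6 of the 10 were called higher in CD133+ cells (PTMA, SET, HMGA1, HMGB1, HMGB2, HMGN1), where 18.7% of all genes were, and 2 lower (PTMS, HMGB3), where 20.6% were. Among the 11674 genes above the floor on all 12 arrays, fitted alone, 25.4% were called higher in KATO-III. In SNU-216, SET was called higher and PTMS and HMGN2 lower, against 14.6% and 14.0% of all genes. In SNU-601 3 were called higher (PTMA, PTMS, HMGB2) and 0 lower, against 8.59% and 7.78%, and 5 members had an unadjusted limma p under 0.05. Over the lines PTMA and HMGB2 were called higher and 0 lower, against 2.62% and 2.11%, and 4 members had an unadjusted limma p under 0.05. No share of all genes is given for the unadjusted p. For that reason, and because PTMA was chosen by this difference, nothing is read from these counts.

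The median log2 difference of the 10 genes was 0.22 in KATO-III, 0.07 in SNU-216 and 0.24 in SNU-601, and that of all tested genes was 0.00 in each line. Above 0 lay 8, 5 and 9 members, in that order, and 43.9%, 44.2% and 45.3% of all tested genes. A gene at the floor on all arrays of a line has a difference of 0 there and does not count as above 0. In SNU-216 one of the 10 values is HMGB1 at the floor. Both calls over the lines were lost when the 2 arrays of a population were averaged first, and when KATO-III was left out, where PTMA was 0.57 and HMGB2 0.29. With 1 array left out at a time, PTMA was called over the lines in 2 of 12 fits and HMGB2 in 3. Within lines, the call of SET in SNU-216 held in 2 of the 12, those of HMGN1 in KATO-III and HMGN2 in SNU-216 in 8, that of PTMS in SNU-601 in 10 and in KATO-III in 11.

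**Figure D3:**
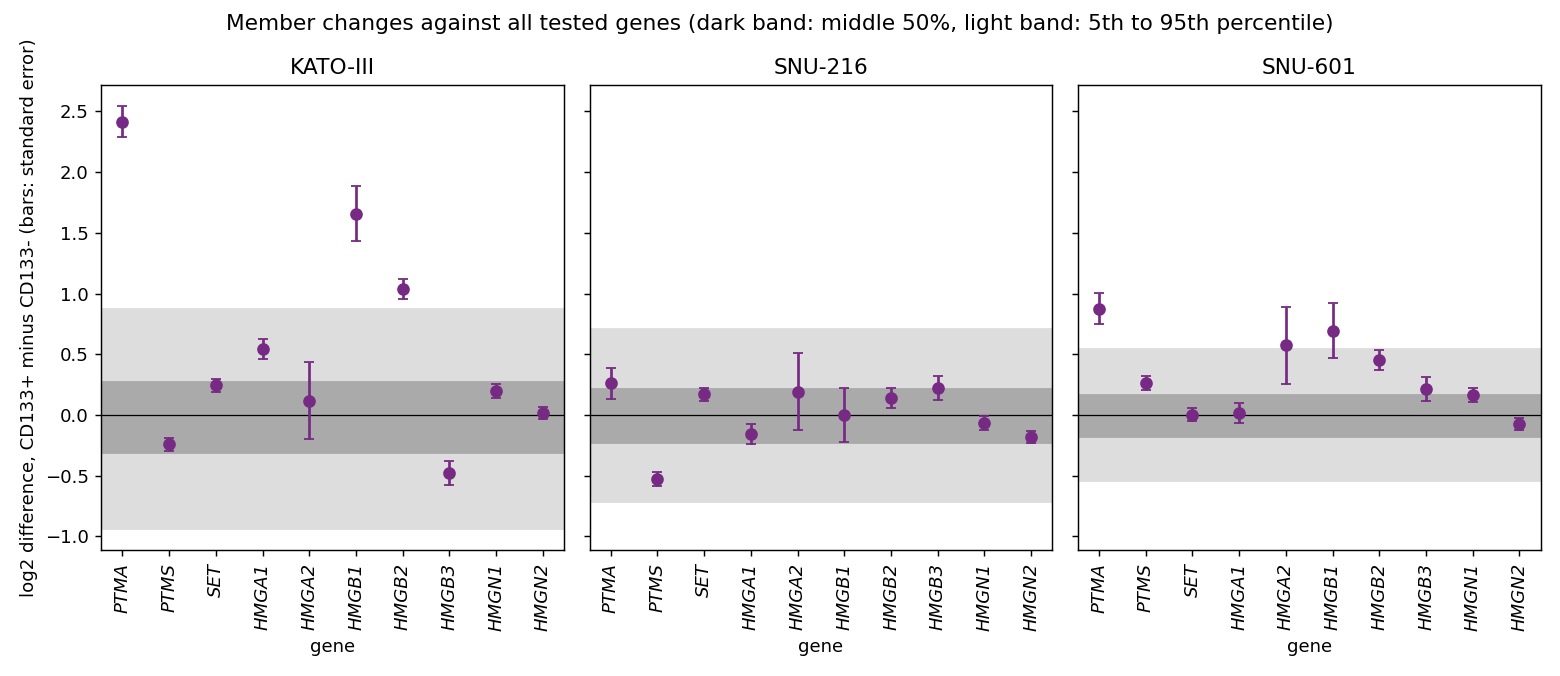
Log2 difference between fractions (points, with standard error bars) of each gene in KATO-III, SNU-216 and SNU-601. The dark band holds the middle 50% of all 20147 tested genes, the light band their 5th to 95th percentile. PTMA, HMGB1 and HMGB2 lie above the light band in KATO-III, and in SNU-216 none does. HMGB1 is at the floor in SNU-216, so its point at 0 is not a measured difference.

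The signal-to-noise ratio (SNR), the difference of the means of the 6 CD133+ and 6 CD133- arrays over the sum of their SDs, was under 1 in size for all 10 genes, against 0.960% of all genes past 1 or -1. It was 0.97 for SET, 0.77 for PTMA, 0.48 for HMGB1, 0.45 for HMGB2 and -0.66 for HMGN2. SET had the highest ratio with a small difference and PTMA a lower one with a large difference. The CD133+ arrays of PTMA ran from 420 to 1796.

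The change differed between lines for 5 of the 9 genes other than PTMA, against 44.4% of all genes. They were PTMS, HMGA1, HMGB1, HMGB2 and HMGB3. KATO-III had the highest change of the 3 lines for PTMA, HMGA1 and HMGB2, and of the 2 lines with values for HMGB1, the lowest for HMGB3, and a middle one for PTMS. With 9 genes, nothing particular to the family is read from this count.

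The level differed between lines for 7 of the 10 genes, against 72.3% of all genes, a share close to that of all genes. Between SNU-216 and KATO-III 62.0% of all genes were called, between SNU-601 and KATO-III 58.6% and between SNU-601 and SNU-216 56.5%. The same 7 members were called in each of these pairs, namely PTMA, PTMS, HMGA1, HMGB1, HMGB2, HMGB3 and HMGN1, and HMGA2 in the last pair as well. Over population means, 4 of the 10 were called (PTMS, HMGB1, HMGB2, HMGB3), against 34.7% of all genes.

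**Figure D4:**
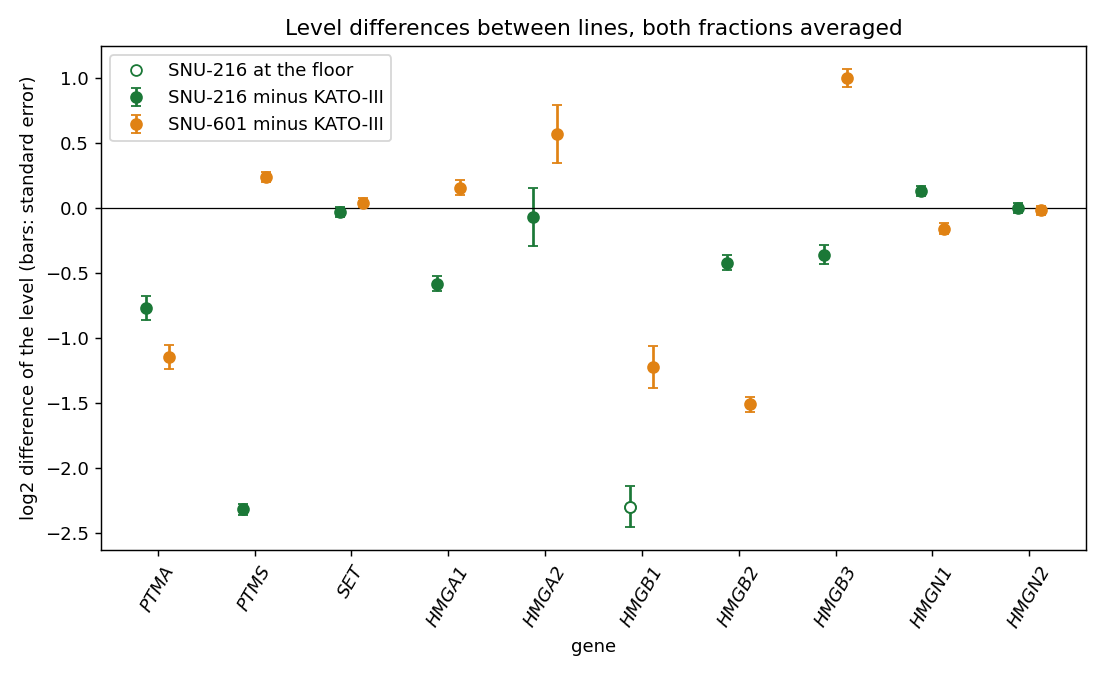
Log2 difference of the level between lines, averaged over both fractions, with standard error bars. Green is SNU-216 minus KATO-III and orange SNU-601 minus KATO-III, and the open point marks HMGB1, which was at the floor in SNU-216, so that its difference is a bound. PTMS and HMGB1 are lowest in SNU-216, HMGB2 is lowest and HMGB3 highest in SNU-601, and SET and HMGN2 lie near 0.

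Across the 12 arrays, with each line centered on its own mean, PTMA ran with HMGB2 (Pearson r 0.97), HMGB1 (0.95), HMGA1 (0.83), HMGN1 (0.77) and SET (0.74). It ran against HMGB3 (-0.56) and PTMS (-0.30), and r was -0.12 with HMGN2. These 12 points are 6 pairs of arrays and the KATO-III fractions weigh most in them. Among all tested genes, those most like PTMA on this measure were SRP19, a subunit of the signal recognition particle (r 0.997), MAD2L1 of the spindle checkpoint (0.990), C5ORF34 (0.989), LOC100130178 (0.988) and YEATS4 (0.987). The most like HMGB2 were TACC3 (0.993) and CKAP2 (0.982), which both act on the mitotic spindle.

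For PTMS the most alike were MX1, an interferon-induced GTPase (0.988), and ITPKA (0.986). ABHD5 (0.977) and LOC651576 (0.976) came first for SET, and HS.313142, above the floor on 4 arrays, and LSR (0.974 each) for HMGA1. C1RL (0.972) and PKNOX1 (0.959) were most like HMGB3, TESC (0.957) and LOC646426 (0.949) most like HMGN1, and L3MBTL4, above the floor on 5 arrays, (0.948) and SNORD16 (0.932) most like HMGN2.

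Genes that work with the family were taken as lists. Their counts stand beside the shares of all tested genes, 2.62% called higher and 2.11% lower over the lines. Within lines these shares were 18.7% and 20.6% in KATO-III, 14.6% and 14.0% in SNU-216, and 8.59% and 7.78% in SNU-601. All calls of listed genes over the lines take arrays as units, although arrays of a population were correlated (0.641 as a random block). The calls of PTMA and HMGB2 over the lines were lost with population means as units. No such fit is shown for the listed genes, so their adjusted p-values treat the 2 arrays of a population as separate units. Of 14 proliferation genes 11 were called higher in CD133+ cells of KATO-III, 3 higher and 1 lower in SNU-216, and 10 higher in SNU-601, and over the lines 5 were. These 5 were CDC2, the cyclin-dependent kinase of mitosis (0.85, SE 0.07), BUB1 (0.80), CCNB1 (0.74), TYMS (0.47) and TOP2A (0.43). The study of these arrays had listed CDC2 and TOP2A among its genes raised in CD133+ cells, so no p-value is given here. The mean log2 difference of the 14 genes was 0.69 in KATO-III, 0.11 in SNU-216 and 0.42 in SNU-601, which is the order of lines seen for PTMA and HMGB2. Not all of the 14 rose. Mean intensities of MKI67 in CD133+ against CD133- cells were 193 against 240 in KATO-III and 62.3 against 69.6 in SNU-216. In SNU-601 they were 126 against 125. PLK1 (970 against 1431) and CCNA2 (7501 against 8433) were also lower in CD133+ SNU-216 cells. The part of proliferation in the PTMA and HMGB2 differences was not tested.

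Of 6 tested HMG relatives 1 was called higher and 1 lower over the lines. HMGN4, a nucleosome-binding relative of HMGN2, was 0.18 higher (SE 0.04, adjusted p = 0.0388 in limma), and KIAA0194, the row of HMGXB3, was 0.37 lower, with a log2 difference of -0.37 (adjusted p = 0.0236 in limma). NSBP1, the row of HMGN5, read 0.59 over the lines and was not called there (adjusted p = 0.142 in limma), with 0.99 in KATO-III and 1.10 in SNU-216, the second against CD133- values at the floor. Of 15 tested genes with an HMG box in other roles 3 were called higher and 0 lower. They were TFAM, which packages mitochondrial DNA (0.41, adjusted p = 0.0374 in limma), SMARCE1, a subunit of the SWI/SNF remodeler (0.32, adjusted p = 0.0126 in limma), and SOX4, a transcription factor (0.24, adjusted p = 0.0433 in limma). SMARCE1 was called in all 3 lines. The calls over the lines in both lists take arrays as units, and none is shown with population means.

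Among 11 tested partners of SET 0 were called over the lines in limma, and 2 had an unadjusted p under 0.05. The largest differences were those of KIAA1524, which encodes an inhibitor of protein phosphatase 2A (0.68, adjusted p = 0.123 in limma, with 1.57 in KATO-III, -0.29 in SNU-216 and 0.77 in SNU-601), TREX1 (-0.26) and PPP2CB, a catalytic subunit of that phosphatase (0.15). Of 5 prothymosin partners 0 were called over the lines in limma, with 1 at an unadjusted p under 0.05. NFE2L2, the oxidative stress factor whose inhibitor KEAP1 binds prothymosin α, read 0.51 (adjusted p = 0.0526 in limma) and was called higher in KATO-III (1.04) and SNU-216 (0.47). EP300 read -0.16 and KEAP1 -0.13.

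Of the listed histone chaperones, NPM1 was above the floor on 0 arrays and was not tested. Of 14 tested histone chaperones CHAF1B, a subunit of the assembly factor that follows replication, was called higher over the lines (0.35, SE 0.06, adjusted p = 0.0116 in limma). In KATO-III 5 were called higher and 2 lower, against 18.7% and 20.6% of all genes. RBBP7 was among those higher there, at 1.50, while its value over the lines was 0.66 (adjusted p = 0.0749 in limma). CHAF1A read 0.31 over the lines, with 0.44, -0.41 and 0.89 in KATO-III, SNU-216 and SNU-601. Of 6 tested linker histones, which HMG proteins displace from nucleosomes, 0 were called over the lines in limma and 0 had an unadjusted p under 0.05. The largest differences were HIST1H1D (-0.22), HIST1H1B (0.20) and H1F0 (0.05).

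Of 8 genes of the let-7 axis that controls HMGA2, LIN28, LIN28B and TRIM71 were above the floor on 0 arrays, as HMGA2 itself was low. Of the 5 tested, 0 were called over the lines in limma and 2 had an unadjusted p under 0.05. ARID3B read -0.42, IGF2BP1 -0.40 and IGF2BP2 0.29. Of 6 receptors of released HMGB1 only CXCR4 could be tested. It read 0.54 over the lines (adjusted p = 0.0563 in limma, unadjusted p under 0.05), was called higher in KATO-III (0.86) and SNU-601 (0.75), and was under the floor on all SNU-216 arrays, as was HMGB1.

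**Figure D5:**
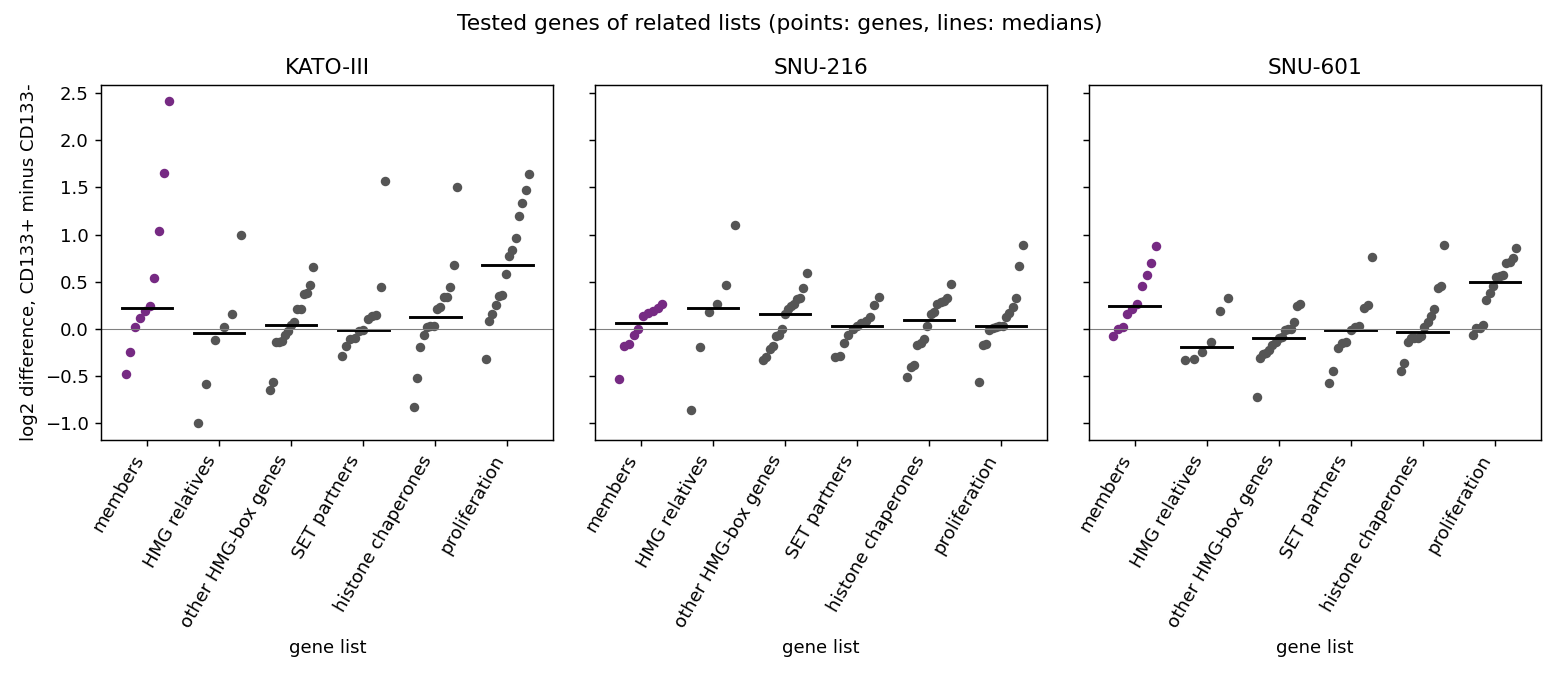
Log2 difference between the fractions in KATO-III, SNU-216 and SNU-601 for the tested genes of the family (purple) and of related gene lists (gray). Each point is a gene, in order of its value, and each line is the median of a list. The medians of the proliferation list, at 0.68, 0.03 and 0.50, and of the 10 genes, at 0.22, 0.07 and 0.24, are lowest in SNU-216.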

How the data were processed

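The arrays were Illumina HT-12 v3 BeadChips, 2 for each of 6 populations, 12 in all. The authors deposited quantile-normalized intensities with the background subtracted, 1 row per gene symbol. The submitters' processing notes name BeadStudio, and the step from probes to gene rows is not given in the sources used here. Of 34688 rows 93 were empty, and 32.1% of the values were at or below 0. Array number limits the precision.

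Intensities under 32.7 (the 1st percentile of all values without its sign) were raised to this floor before log2 was taken. Groups came from the labels. limma 3.58.1 in R 4.3.3 was used with a mean-variance trend: with the line as a block for the difference between fractions over the lines (8 residual degrees of freedom), and with 6 population means for differences within lines, their interaction and levels (6 residual degrees of freedom). P-values were adjusted by Benjamini-Hochberg over 20147 genes. The code was tested on simulated data. Promoter windows came from RefSeq. Figures used Python 3.11.15 and matplotlib 3.10.9.

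The members and lists were chosen with earlier results of these data known. Named were all members, PROM1, genes of each list called over the lines, filled up to 3 by size, and the genes most like PTMA (5) and the other members above the floor on all arrays (2 each). Alternatives covered the floor, an offset, centring, normalization, filter, trend, replicate block, averaging, a random block and each array left out.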

Additional observations from a re-analysis of the deposited data

Results flagged for a closer look

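For 5 members other than PTMA, the difference between CD133+ and CD133- cells itself differed between the 3 lines in a moderated F-test of limma. The adjusted p was 0.000231 for PTMS, 0.000806 for HMGB2, 0.00266 for HMGA1, 0.00440 for HMGB3 and 0.00743 for HMGB1, where 44.4% of all tested genes passed the same test. The call of HMGB1 rests on SNU-216 arrays that were all under the floor. PTMS was called lower in CD133+ cells of KATO-III and SNU-216 and called higher in SNU-601. For HMGB3 and HMGA1 only the KATO-III difference was called, at -0.48 and 0.54, and the values in SNU-216 were 0.22 and -0.16 and in SNU-601 0.21 and 0.02.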

How the results depend on the processing

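Of the 10 members, 2 were called over the lines, and 0 were with limma without a trend, with the replicate number as a block, with population means in place of arrays, with the population as a random block (correlation 0.641) and, chosen after seeing the data, without KATO-III. In SNU-216 3 were called, and 1 without a trend. Levels between lines were called for 7 members and for 4 over population means. Members past an SNR of 1 or -1 numbered 0, and 7 with the ratio taken within each line and averaged. Each SD of that second ratio comes from 2 arrays. The share of all genes past it is not given, so nothing is read from the 7. Leaving out each array in turn gave 0 to 2 members over the lines, 6 to 8 in KATO-III, 1 to 3 in SNU-216, 2 to 4 in SNU-601, 6 to 7 (PTMA counted) for the interaction, 7 to 8 for the level and 0 to 1 for the SNR. PTMA kept its call over the lines in 2 of the 12 fits and HMGB2 in 3. The cause was not tested.

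The replicate numbers did not pair the arrays: deviations of same-numbered arrays correlated at 0.03, 0.01 and -0.01 in KATO-III, SNU-216 and SNU-601. The block called 471 of 20147 genes over the lines, against 953 without it, and leaving out an array gave 217 to 851. Apart from the fits that left out an array, 14 of 338 values of a member's difference between fractions lost their call. In the same fits 1 gained one and 0 turned direction. Of 146 F-tests 0 lost and 9 gained a call, SET and HMGN1 among them. These 146 leave out the level over population means. There PTMA, HMGA1 and HMGN1 lost their call (adjusted p 0.260, 0.0780 and 0.201, F-test in limma).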
